A study of Mus musculus with 2 samples.

Results

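Polyamine synthesis and its control were described through 8 genes: *Odc1*, *Srm*, *Sms* and *Amd1* for synthesis, *Oaz1*, *Oaz2* and *Azin1* for the control of ornithine decarboxylase, and *Sat1* for breakdown. A gene was measured when the array's annotation listed it alone for at least 1 probe set, and its probe set with the highest mean was used. By this rule 5 of the 8 genes had a value (*Odc1*, *Srm*, *Azin1*, *Oaz2* and *Sat1*), out of 19938 genes on the array that had one. *Sms* and *Oaz1* were listed only together with a pseudogene, and no probe set listed *Amd1*, so no value was assigned to these 3. The genes were listed by name with earlier results of these data known, so their values are a description and not evidence that they were singled out by the treatment.

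The cells were live CD3+CD4+ T cells sorted from the pancreatic lymph nodes (PLN) of BDC mice at 8 weeks of age. BDC mice are NOD mice that carry the rearranged receptor genes of a diabetogenic CD4+ T cell clone, so most of their CD4+ T cells share 1 receptor, and both groups have this background. The sample labels number the clone differently from the methods, which are followed here. One group received 1 mg of nondepleting αCD4 (ND αCD4, clone YTS177) and the other 1 mg of isotype control Ab (clone 2A3), and cells were taken 48 hours later. This dose is from the labels, and the dose range in the methods is higher for the isotype control Ab. The comparison asks how the binding of CD4 by ND αCD4 alters transcription in these T cells. Per the methods, PLN from 3 mice were pooled for a sort. Each group has 1 array, so no difference has a replicate check and no p value is given. Precision is limited by this number.

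Polyamines are small, positively charged molecules that bind RNA, DNA and ATP and are needed for translation and growth. Ornithine decarboxylase makes putrescine from ornithine, and spermidine synthase and spermine synthase extend it with aminopropyl groups from decarboxylated S-adenosylmethionine. Antizymes bind ornithine decarboxylase and send it to the proteasome, and antizyme inhibitors bind antizyme in its place. T cells raise polyamine synthesis when they are activated, and *Odc1* is a known target of the transcription factor MYC.

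The RefSeq promoter table held windows for 6 of the 8 genes and not for *Srm* or *Azin1*. The 250 bases before the gene start are shown for *Odc1*, *Oaz2* and *Sat1*, since these are the genes with both a window and a signal of their own, and their log2 ratios lay apart. They are written 5′ to 3′ on the gene's strand in build GRCm38.p6, and capitals mark the GC box (GGGCGG or CCGCCC). The *Odc1* window is chr12:17544623-17544872 on the plus strand, that of *Oaz2* is chr9:65676298-65676547 on the plus strand, and that of *Sat1* is chrX:155216450-155216699 on the minus strand.
Odc1: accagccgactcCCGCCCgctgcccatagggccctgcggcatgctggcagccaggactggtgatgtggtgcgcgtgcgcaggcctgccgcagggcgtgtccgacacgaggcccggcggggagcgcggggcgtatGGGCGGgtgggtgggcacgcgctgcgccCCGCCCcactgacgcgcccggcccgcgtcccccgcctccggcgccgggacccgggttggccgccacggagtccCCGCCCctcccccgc
Oaz2: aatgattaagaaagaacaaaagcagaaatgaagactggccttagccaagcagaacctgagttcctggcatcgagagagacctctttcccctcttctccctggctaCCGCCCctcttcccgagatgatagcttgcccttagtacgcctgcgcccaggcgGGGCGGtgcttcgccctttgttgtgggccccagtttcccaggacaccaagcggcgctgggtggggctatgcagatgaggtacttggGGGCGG
Sat1: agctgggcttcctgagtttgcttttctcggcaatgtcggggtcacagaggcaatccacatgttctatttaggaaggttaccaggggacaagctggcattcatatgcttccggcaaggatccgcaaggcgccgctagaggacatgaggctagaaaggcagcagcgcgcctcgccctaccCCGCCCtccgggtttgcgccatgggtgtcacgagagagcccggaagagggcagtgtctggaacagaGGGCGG

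The letters CACGTG, the E-box that MYC and other factors bind, were not in any of these 3 windows. Bases after the gene start were not searched. They stood once in 1 of the 2 windows of *Sms*, and 6.02% of the 32851 windows in the table held them. The letters TATAAA, searched on both strands like the others, were in none of the 250-base windows of the 6 genes, against 12.4% of all windows. The GC box, a motif bound by SP1 and related factors and chosen after the windows were read, stood 4 times in the *Odc1* window, 3 times in that of *Oaz2* and 2 times in that of *Sat1*. Of the windows not shown, that of *Amd1* held 1 GC box, 1 of the *Sms* windows held 4, and that of *Oaz1* and the other *Sms* window held 0. At least 1 GC box was in 32.7% of all windows. The *Odc1* window was 80.0% G and C, that of *Oaz2* 58.0% and that of *Sat1* 59.6%, against a median of 52.4% over all windows. These matches describe the letters near the gene start, and neither binding nor promoter activity was measured.

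Both measured enzymes of synthesis had lower signals after ND αCD4, while the gene that starts polyamine breakdown had a higher one. *Srm* was 1.51-fold lower, *Odc1* was 1.33-fold lower and *Azin1* was 1.19-fold lower, *Oaz2* differed by 1.04-fold, and *Sat1* was 1.21-fold higher. Of the 5 genes, 1 was lower by at least 1.5-fold, the size used for counting, and none was higher by that size. Over all 13195 detected genes, 1.01% were lower and 0.212% were higher by at least 1.5-fold. A gene was called detected when its signal in either array was above background, set at the 95th percentile of probe sets for odorant and pheromone receptors, and all 5 genes were above it in both arrays. The median log2 ratio of the 5 genes, ND αCD4 minus isotype control, was -0.25, against -0.01 over all detected genes.

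**Figure D1:**
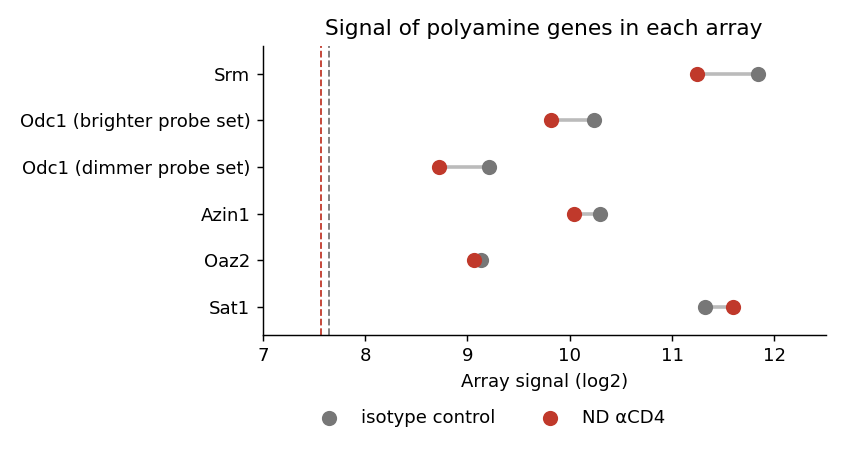
Array signal (log2) of each probe set that lists a measured polyamine gene alone, after isotype control Ab (gray) and after ND αCD4 (red), with both values of a probe set joined and dashed lines at the background level of each array (7.65 and 7.57). *Srm* goes from 11.84 to 11.25 and *Sat1* from 11.32 to 11.60, and only both ends of a line can be compared, because probes differ between genes.

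*Odc1* encodes ornithine decarboxylase, the first and usually limiting enzyme of the pathway. Its brighter probe set had a log2 signal of 10.24 after isotype control Ab and 9.82 after ND αCD4. Its dimmer probe set had 9.21 and 8.72, which is 1.40-fold lower. Both probe sets were thus lower after ND αCD4, with log2 ratios of -0.41 and -0.49. Among genes with exactly 2 detected probe sets (536 genes), the SD of the log2 ratio between probe sets of a gene was 0.0931. This SD describes disagreement between probes on the same arrays and leaves out differences between mice.

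*Srm* encodes spermidine synthase, which turns putrescine into spermidine. Its log2 signal was 11.84 after isotype control Ab and 11.25 after ND αCD4, a log2 ratio of -0.59. This lay just past the 1.5-fold line, which is 0.585 on the log2 scale. With lowess correction the log2 ratio was -0.578, with quantile normalization -0.578 and with the detected genes centred on 0 -0.584, all just short of it. Its lower signal therefore kept its direction, while its count as a 1.5-fold difference depended on the scaling. Spermine synthase (*Sms*), the next enzyme, and S-adenosylmethionine decarboxylase (*Amd1*), which supplies the aminopropyl groups, have no value of their own here.

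Both measured control genes of ornithine decarboxylase had log2 ratios nearer to 0 than those of *Srm* and *Odc1*. *Azin1* encodes antizyme inhibitor, a relative of ornithine decarboxylase without its enzyme activity. Its log2 signal was 10.30 after isotype control Ab and 10.04 after ND αCD4, a log2 ratio of -0.25. *Oaz2* encodes an antizyme, whose full-length protein is made only after a ribosomal frameshift that polyamines promote. Its log2 signal was 9.13 and 9.07, a log2 ratio of -0.06. The array measures mRNA and does not follow the frameshift or the turnover of the enzyme.

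*Sat1* encodes spermidine/spermine N1-acetyltransferase, which acetylates polyamines for export or oxidation. It was the one measured gene of the list with a higher signal after ND αCD4, at 11.32 after isotype control Ab and 11.60 after ND αCD4. Its log2 ratio was 0.27. The log2 ratio of *Sat1* exceeded that of *Srm* by 0.87 and that of *Odc1* by 0.69, so the balance of these mRNAs shifted by 1.82-fold and 1.61-fold between the arrays. *Sat1* and *Srm* were the highest and lowest of the measured genes, so theirs is the largest difference among them. Such differences between other genes were not computed. The log2 ratio of *Odc1* was 0.35 below that of *Oaz2*, a shift of 1.28-fold between the enzyme and an antizyme. Such differences within the arrays show unequal change between genes and not which gene changed.

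Set among all detected genes, the 5 genes spread over most of the range. A lower log2 ratio than that of *Srm* was found in 0.985% of detected genes. The corresponding share was 2.17% for *Odc1*, 6.31% for *Azin1*, 34.1% for *Oaz2* and 97.4% for *Sat1*. The middle 95% of all detected genes ran from -0.39 to 0.28, so *Srm* and *Odc1* lay below this range and *Azin1*, *Oaz2* and *Sat1* lay inside it. When only the tenth of detected genes with the most similar mean signal was considered, *Srm* and *Odc1* were again below the middle 95%, and *Sat1* lay just above it, at 0.27 against an upper end of 0.26. The positions describe this pair of arrays, since genes are not independent replicates.

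**Figure D2:**
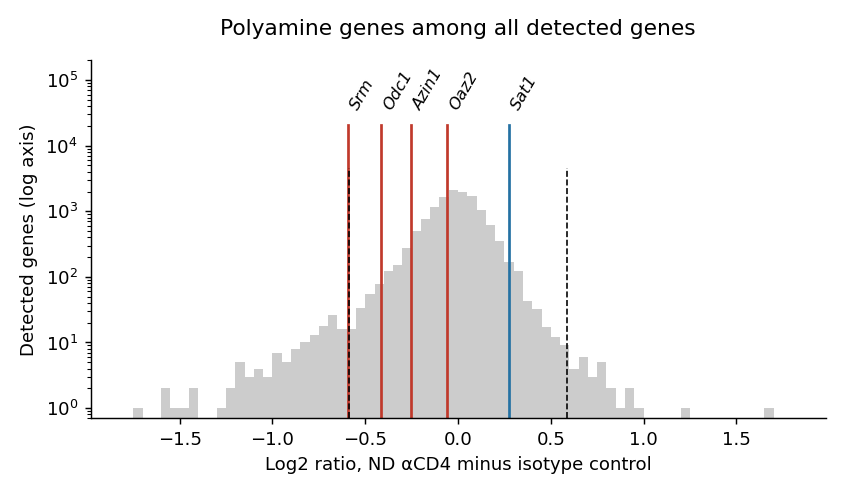
Number of detected genes (log axis) by log2 ratio, ND αCD4 minus isotype control, in gray, with the 5 measured polyamine genes as vertical lines (red below 0, blue above 0) and the 1.5-fold size as dashed lines. *Srm* at -0.59 lies on the dashed line, *Oaz2* at -0.06 lies in the bulk of genes, and *Sat1* at 0.27 lies on the upper side.

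The rest of the pathway was followed through 33 further genes grouped by role. Of these, 21 were detected, and none was higher or lower by at least 1.5-fold, against 0.212% and 1.01% of all detected genes. At these shares, finding none among 21 genes says nothing particular about the pathway. A log2 ratio below 0 was found in 19 of the 21 and above 0 in 2, against 52.7% below 0 over all detected genes. The median log2 ratio was -0.07. Many of the 21 ratios were smaller in size than 0.0931, the SD between probe sets of a gene, so their signs carry little weight. *Atp13a3*, whose probe sets disagreed in sign, was counted by the brighter. No single-gene probe set was listed for *Mat2a*, *Ahcy*, *Amd2*, *Paox* and *Slc22a3*, and *Arg1*, *Arg2*, *Mat1a*, *Sat2*, *Oaz3* and *Slc18b1* did not exceed background in either array.

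Spermidine is the substrate for hypusine, a modified lysine found in the translation factor eIF5A. *Eif5a* had a log2 signal of 12.96 after isotype control Ab and 12.58 after ND αCD4, a 1.30-fold lower level. Its dimmer probe set had 11.47 and 11.19, which is 1.21-fold lower. Among the 21 genes *Eif5a* was the lowest, with a log2 ratio of -0.37, and 2.80% of detected genes lay lower. The enzymes that build hypusine differed less, with *Dohh*, the hydroxylase of the second step, at -0.13 and *Dhps*, the deoxyhypusine synthase of the first, at -0.05. All 4 detected hypusine genes had log2 ratios below 0, with a median of -0.10, against 52.7% of all detected genes below 0. Some of these ratios, that of *Dhps* among them, were smaller in size than 0.0931, the SD between probe sets of a gene.

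Detected genes listed under ornithine supply or under recycling of the by-product of synthesis had log2 ratios below 0. Several of these were smaller in size than 0.0931, the SD between probe sets of a gene. *Slc7a1*, a transporter for arginine and other cationic amino acids, had 10.60 after control Ab and 10.37 after ND αCD4, a log2 ratio of -0.23. *Aldh18a1*, which starts ornithine and proline synthesis from glutamate, had a log2 ratio of -0.10. The 4 detected genes of the supply list, which is broader than the making of ornithine, ran from -0.23 to -0.04, with a median of -0.08. *Mtap*, which splits the methylthioadenosine left by spermidine and spermine synthesis, was 1.20-fold lower, at 10.02 and 9.75. *Enoph1*, a later enzyme of that salvage route, had a log2 ratio of -0.18. The 5 detected salvage genes ran from -0.26 to -0.02, with a median of -0.13. Of all detected genes, 52.7% lay below 0.

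The remaining roles held few detected genes. *Mat2b*, a regulatory subunit of methionine adenosyltransferase, had a log2 ratio of 0.08 and was the only detected gene of the methionine cycle group. *Smox*, spermine oxidase, was the only one of catabolism, at -0.05, while *Sat1* lay at 0.27. *Azin2*, the other antizyme inhibitor, was near background at 7.93 and 7.73, with a log2 ratio of -0.20. Of 5 detected transport genes, 4 lay below 0, led by the organic cation transporter *Slc22a2* at -0.18 and by *Slc12a8* at -0.16. Over all detected genes, the share below 0 was 52.7%. The probe sets of *Atp13a3*, a polyamine transporting ATPase, disagreed in sign, at -0.07 for the brighter and 0.08 for the dimmer. Each of these differences was under 1.5-fold.

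**Figure D3:**
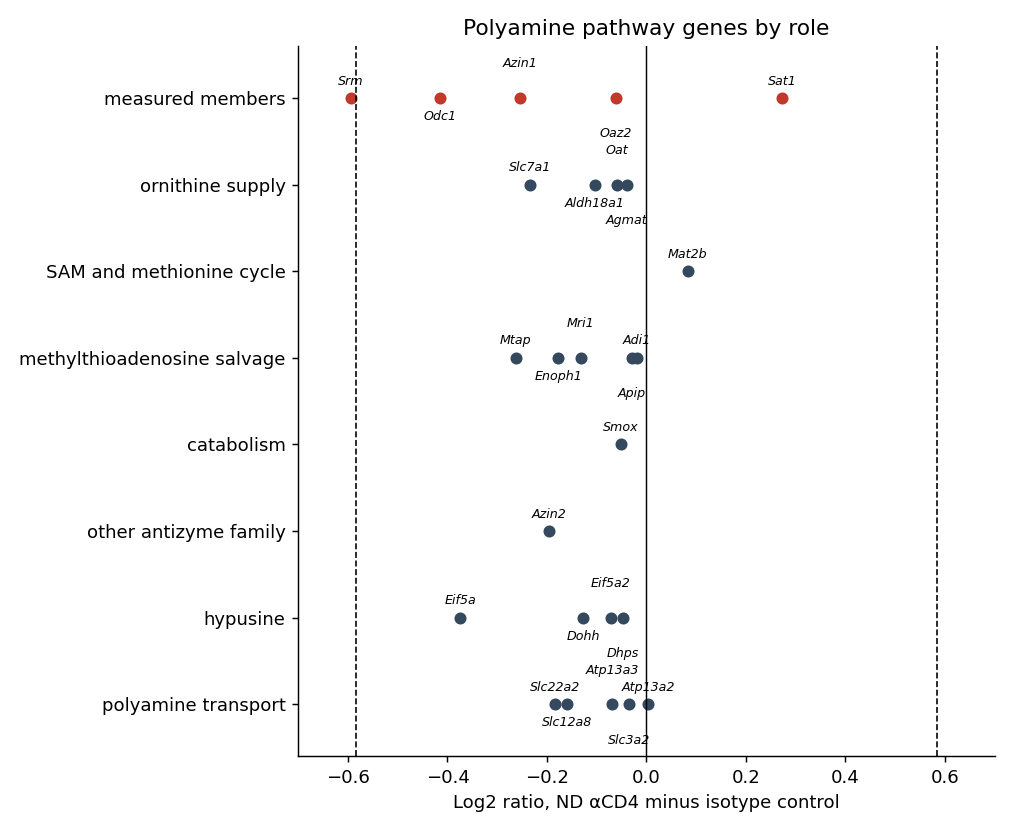
Log2 ratio (ND αCD4 minus isotype) of the 5 measured members (red) and the 21 detected genes of the wider polyamine pathway (dark) by role, 1 point per gene, with a solid line at 0 and dashed lines at 1.5-fold. *Srm* at -0.59 and *Odc1* at -0.41 are the lowest points, *Eif5a* at -0.37 is next, and *Sat1* at 0.27 is the highest.

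Genes of cell division differed in the same direction as the synthesis enzymes. *Myc* had a log2 signal of 11.99 after isotype control Ab and 11.68 after ND αCD4, a log2 ratio of -0.31. The other detected genes of the Myc family list, *Max* and *Mycl*, lay nearer to 0, at -0.07 and -0.05. Of 24 detected cell cycle genes, all 24 had a log2 ratio below 0, with a median of -0.72. By measured values, 19 were at least 1.5-fold lower. With signals below background raised to it, the count was 18 and the median -0.70. *Bub1* and *Birc5* exceeded background only after isotype control Ab. Over all detected genes, 52.7% lay below 0 and 1.01% were lower by at least 1.5-fold. The summed linear signal of the cell cycle list was 34958 after isotype control Ab and 21579 after ND αCD4. The part of these in the polyamine ratios was not tested. In bulk RNA, fewer cells of a type and less RNA per cell cannot be told apart.

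The 6 measured T cell markers, *Cd3e* and *Cd4* among them, had signals from 12.08 to 13.78 and log2 ratios from -0.09 to 0.09. Both CD8 T cell markers were detected and higher after ND αCD4, with a summed linear signal of 3478 after isotype control Ab and 4984 after ND αCD4. *Cd8a* was 1.65-fold higher and *Cd8b1* 1.37-fold higher. Lower log2 ratios than theirs were found in 99.9% and 99.5% of detected genes. All 4 measured B cell markers exceeded background in at least 1 array, with a summed linear signal of 1923 and 2087. Of other lineages, 2 of 5 macrophage, 2 of 5 dendritic cell, 1 of 4 natural killer cell and 2 of 2 measured red blood cell markers were detected. The natural killer cell marker was *Klrd1*, which exceeded background only after ND αCD4 and was at least 1.45-fold higher there. The summed linear signal of that list was 374 after isotype control Ab and 568 after ND αCD4. This sum includes 3 markers that were below background in both arrays. The part of such cells in the polyamine ratios was not tested.

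**Figure D4:**
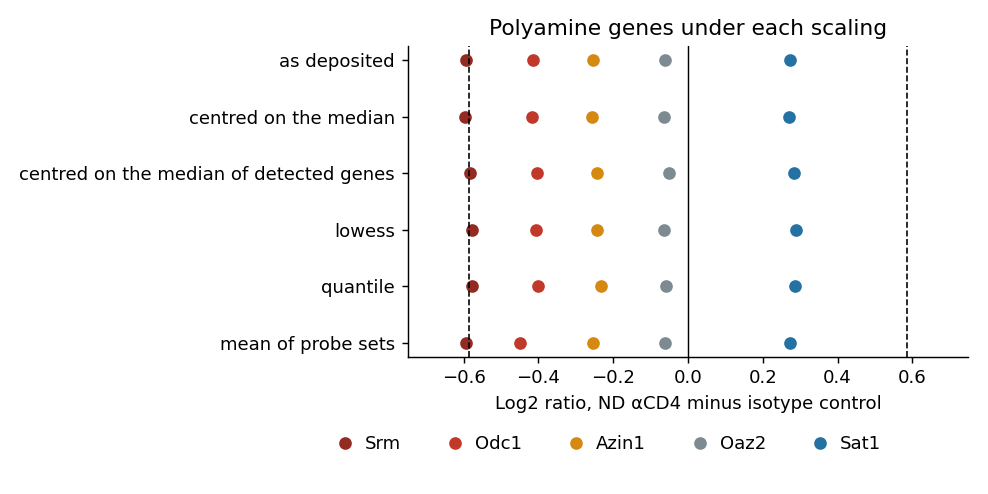
Log2 ratio of the 5 measured polyamine genes under the deposited scaling and 5 alternatives, 1 row each, with a solid line at 0 and dashed lines at 1.5-fold. *Srm* crosses the dashed line between -0.578 and -0.596, while the order of the 5 genes and the sign of each is the same in every row. Centring keeps the order by construction, and averaging of probe sets can move only *Odc1*.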

How the data were processed

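The arrays held total RNA of sorted PLN CD4+ T cells, 1 array per condition. The authors deposited 1 log2 value for each of 35557 probe sets, made with Affymetrix Expression Console per the submitters' processing notes. The version, background correction and normalization were not given in the sources used, and the probe set identifiers are those of an earlier mouse gene ST array than the methods name. The log2 scale was inferred from the range of 2.52 to 14.7 and the equal medians (8.15 in both arrays).

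Names came from the platform annotation: of the probe sets, 21789 had 1 symbol, 1621 several and 12147 none, and only the first were named. By gene identifier, 21698 matched RefSeq GRCm38.p6, and 0 symbols differed. For the 999 of 19938 genes with more than 1 such probe set, the highest mean decided. Background was the 95th percentile of 1193 receptor probe sets in each array. The deposited log2 values were subtracted (ND αCD4 minus isotype control) and counted from 1.5-fold, with no test.

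The members and lists were chosen with earlier results of these data known. The text names all members, the 2 detected genes with the largest log2 ratio in size for each role of the pathway (and any past 1.5-fold), genes without a value, and *Myc*, and 1 gene of the pathway list is not reported here. *Dhps*, *Atp13a3*, *Max*, *Mycl*, *Bub1*, *Birc5*, *Klrd1*, *Cd3e*, *Cd4*, *Cd8a* and *Cd8b1* were added after their values were seen. Alternatives were centring, lowess (fraction 0.3, 3 iterations), a 2-fold size, averaging of probe sets, other filters, quantile normalization and a floor at background, with 3 chosen after seeing the data: centring on detected genes, the dimmer *Odc1* probe set and probe sets shared with a pseudogene. The counting rule and scalings were tested on simulated data. Its noise was set by choice and no simulated fold lay at the 1.5-fold line, so it says nothing of a gene there, such as *Srm*. The tools were Python 3.11.15 with statsmodels 0.14.6, pandas 2.3.3, numpy 2.4.6 and matplotlib 3.10.9.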

Additional observations from a re-analysis of the deposited data

How the results depend on the processing

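For the 5 members, *Myc* and the pathway genes named with a value, 153 log2 ratios were recomputed. All moved by less than 0.0931, the SD between probe sets of a gene. All kept their sign except that of *Atp13a3*, which was 0.0060 with the mean of its probe sets. Much of this was fixed in advance. These genes exceeded background in both arrays, so the filters and the floor could not change their ratios. Nor could averaging for a gene with 1 probe set, and centring shifts every ratio by the same amount. The number of members lower by at least 1.5-fold was 1 as deposited and 0 with lowess, 0 with quantile normalization and 0 when detected genes were centred on their median, since *Srm* lies at the line, and 0 at a 2-fold size by construction. Over all detected genes, a 2-fold size left 2 higher and 25 lower, also by construction. Over all genes, detected or not, 41 were higher and 151 lower by 1.5-fold. The other alternatives, over detected genes, gave 24 to 32 higher and 109 to 134 lower. With probe sets shared with a pseudogene counted for *Sms* and *Oaz1*, the median of the members was -0.20. No paired analysis was possible because each condition has 1 array. With 1 array per condition, the difference between pools of mice has no measure, and signals close to background, such as that of *Azin2*, limit what can be read from small ratios.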

Other observations

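Some probe sets list a polyamine gene together with a pseudogene and were assigned to neither. The 2 that list *Sms* with *Gm8234* had log2 signals of 11.42 and 11.39 in the isotype control array and 11.21 and 11.19 in the ND αCD4 array, each with a log2 ratio of -0.20. The 2 that list *Oaz1* with *Oaz1-ps* had 12.25 and 12.60 in the isotype control array and 12.23 and 12.57 in the ND αCD4 array, with log2 ratios of -0.02 and -0.03. The 3 that list *Ahcy*, the hydrolase of S-adenosylhomocysteine, with *Gm4737* had log2 ratios from -0.41 to -0.37, which is 1.30-fold to 1.33-fold lower.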
